A study of Mus musculus with 54 samples.

Results

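The genes that make cholesterol and fatty acids, together with the SREBP transcription factors that control them, were followed along the small intestine of lactating and virgin mice. The group held 32 of the 25229 gene symbols counted. They were listed by name for their role: 18 enzymes of the mevalonate and sterol pathway, 6 regulators and carriers of sterols, and 8 enzymes of fatty acid synthesis, here called lipogenic. All 32 had enough reads to be tested in every comparison.

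The study sequenced polyadenylated RNA from pieces of ileum, jejunum and duodenum of mice. Lactating females on day 7 of lactation were compared with virgin females of the same age and with virgin males. Each of these 3 states gave 6 libraries in each of the 3 sections, 54 in all, and the labels name no strain, genotype or age in weeks. All mice were fed RM3 diet when breeding and RM1 diet for maintenance and the experiment, per the labels, which do not say which of these diets the lactating females had on the day of sampling. A piece of gut holds epithelium, connective tissue, muscle and any fat attached to it, so a lower value in such bulk RNA can mean fewer cells of a type or less RNA per cell, and these cannot be told apart. Nothing in the labels ties a library to an animal of its own, and the p-values below reflect variation among the libraries, part of which may be technical.

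Cholesterol is built from acetyl-CoA through mevalonate, the isoprenoid diphosphates, squalene and lanosterol. SREBP-2, the product of Srebf2, drives the genes of that route when the membranes of the endoplasmic reticulum are low in sterol, and SREBP-1, the product of Srebf1, mainly drives fatty acid synthesis. Scap escorts both proteins to the Golgi, where they are cut and released, and the Insig proteins hold them back when sterol is plentiful. The ileum is the section that takes bile acids back from the gut lumen, while the more proximal gut absorbs most dietary fat and cholesterol.

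The 52 libraries analysed held 18479722 to 27604041 reads in genes, with a median of 22233839, and 17019 to 17894 genes had reads. The ileal markers Fabp6 and Slc10a2 summed to 1904 to 7288 CPM (reads of a gene scaled to a common library size) in ileal libraries, against 0.815 to 27.7 CPM in jejunal and 0.477 to 1.59 CPM in duodenal libraries. Replicate 3 of the lactating duodenum and replicate 3 of the lactating jejunum were left out. In CPM by library totals alone, used here for Alb and Pdx1, the first carried 109945 CPM of the liver transcript Alb. The other duodenal libraries had at most 176 CPM. The second carried 20.3 CPM of Pdx1, a duodenal transcription factor, a value inside the range of 17.5 to 75.4 CPM in the other duodenal libraries and above the 0.265 CPM of the highest other jejunal library. That leaves 5 libraries in each of these lactating groups and 6 in the other 7 groups. In the order of the samples, all ileal libraries came after the jejunal and duodenal ones, which alternated. Any difference in handling that went with this order cannot be told apart from the difference between ileum and the other sections.

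Sequence upstream of the genes was examined because the 16 sterol enzymes described below were higher in the ileum than in the jejunum in every state. RefSeq windows on GRCm38.p6, from 250 bases before the transcription start to 50 after it, were found for 26 of the 32 genes (not for Sqle, Fdft1, Fdps, Stard4, Scd1 and Scd2). On both strands, CCAAT, the box bound by NF-Y, stood in the windows of 14 of 15 sterol enzymes, 4 of 5 regulators and 4 of 6 lipogenic genes, against 42.3% of the 11924 tested genes with a window and 37.4% of all 32851 windows. GGGCGG, the Sp1 box, stood in 14 of the 15 sterol enzymes, 5 of the 5 regulators and 3 of the 6 lipogenic genes, against 65.4% of tested genes and 35.7% of all windows. The sterol regulatory element, searched as TCACNCCAC, was found only in Hmgcs1 among the 26, against 1.44% of tested genes and 1.24% of all windows. Only these letters were searched, so a form of the element spelled otherwise would not be found. The E-box CACGTG stood in 3 of the 15 sterol enzymes, 2 of the 5 regulators and 0 of the 6 lipogenic genes, against 11.2% of tested genes and 7.15% of all windows. Acat2, which was higher in the ileum of virgin females, was the sterol enzyme without CCAAT. Ebp, which was not called there, carried it, as did Sc5d and Srebf1, which were lower in the ileum. The part of these motifs in the section differences was not tested. A match is a run of letters and not a measured binding site, and windows of 300 bases do not hold more distant elements.

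Windows are given for the 4 genes with the largest difference between virgin female ileum and jejunum among those with CCAAT or TCACNCCAC. They run 5′ to 3′ on the strand of the gene. Every CCAAT box, on either strand, and the single TCACNCCAC match are in capitals. The marked motifs do not overlap one another.
Idi1 (chr13:8885356-8885655, plus strand): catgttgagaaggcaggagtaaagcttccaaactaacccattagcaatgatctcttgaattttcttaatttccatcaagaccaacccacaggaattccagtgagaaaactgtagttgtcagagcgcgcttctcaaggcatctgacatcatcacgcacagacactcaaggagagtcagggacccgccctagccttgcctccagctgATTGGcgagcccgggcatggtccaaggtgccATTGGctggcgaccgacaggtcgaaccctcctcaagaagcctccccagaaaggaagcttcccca
Cyp51 (chr5:4104648-4104947, minus strand): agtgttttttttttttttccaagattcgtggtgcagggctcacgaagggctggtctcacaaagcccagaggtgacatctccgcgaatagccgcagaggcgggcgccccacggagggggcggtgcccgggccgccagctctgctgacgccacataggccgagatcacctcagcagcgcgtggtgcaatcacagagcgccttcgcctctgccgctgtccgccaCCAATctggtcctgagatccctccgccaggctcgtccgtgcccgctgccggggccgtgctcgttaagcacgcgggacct
Hmgcs1 (chr13:119690101-119690400, plus strand): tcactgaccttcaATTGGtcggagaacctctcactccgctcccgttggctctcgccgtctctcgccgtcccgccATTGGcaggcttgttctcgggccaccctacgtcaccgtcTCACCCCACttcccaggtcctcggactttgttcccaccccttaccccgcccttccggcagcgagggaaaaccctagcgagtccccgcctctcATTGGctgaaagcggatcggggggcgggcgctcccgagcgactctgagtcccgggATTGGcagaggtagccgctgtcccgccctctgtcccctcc
Lss (chr10:76531355-76531654, plus strand): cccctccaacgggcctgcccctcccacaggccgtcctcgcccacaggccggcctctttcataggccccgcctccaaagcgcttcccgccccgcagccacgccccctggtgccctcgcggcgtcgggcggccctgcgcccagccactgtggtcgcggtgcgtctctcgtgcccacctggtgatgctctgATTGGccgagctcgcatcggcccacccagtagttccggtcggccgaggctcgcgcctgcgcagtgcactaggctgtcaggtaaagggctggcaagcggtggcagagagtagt
Hmgcs1 carried 4 CCAAT boxes and Idi1 carried 2, while Cyp51 and Lss carried 1 each. The TCACNCCAC match of Hmgcs1 began 137 bases before the start.

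In virgin females the sterol enzymes were higher in the ileum than in the jejunum almost as a block. Of the 18, 16 rose, Sc5d fell and Ebp was not called, where called means an adjusted p under 0.05 in edgeR's quasi-likelihood test. Across all 32 members 25 were called, 23 of them higher and 2 lower. Of the 15154 genes tested in this comparison, 48.0% were called, 23.9% as higher in the ileum. The median log2 fold change of the sterol enzymes was 1.46, against 0.06 over all genes tested. The libraries of the sections did not overlap for 16 of the 18 sterol enzymes, while 25.1% of all genes tested had no overlap.

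Among the sterol enzymes the largest differences were those of Sqle and Fdft1, of the squalene steps, and of Idi1, of an isoprenoid step before them. Sqle, squalene epoxidase (GRCm38 chr15:59315077-59331192, GENCODE M21), had between 173 and 252 CPM with a median of 190.1 CPM in virgin female ileum, against between 16.2 and 45.7 CPM with a median of 28.9 CPM in virgin female jejunum. The lowest ileal library held several times the reads of the highest jejunal one, and the log2 fold change was 2.74 ± 0.18 (SE; adjusted p = 3.09e-10). Fdft1, squalene synthase (chr14:63145150-63179578), had between 95.3 and 156 CPM with a median of 134 CPM in the ileum, against between 20.5 and 36.7 CPM with a median of 26.03 CPM in the jejunum, a log2 fold change of 2.31 ± 0.14 (adjusted p = 1.12e-10). Idi1, the isopentenyl diphosphate isomerase whose promoter window is printed above (chr13:8885501-8892451), had between 15.04 and 24.4 CPM with a median of 20.5 CPM in the ileum, against between 2.98 and 6.25 CPM with a median of 4.29 CPM in the jejunum. Its log2 fold change was 2.20 ± 0.19 (adjusted p = 2.36e-08), and for none of these 3 genes did the sections overlap.

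The remaining sterol enzymes formed a graded series. At the head of the mevalonate route, Hmgcs1, cytosolic HMG-CoA synthase, had between 395 and 605 CPM with a median of 508 CPM in the ileum, against between 109.6 and 189 CPM with a median of 147 CPM in the jejunum (log2 fold change 1.77 ± 0.13). The lanosterol demethylase Cyp51 had between 188 and 295 CPM with a median of 219 CPM in the ileum, against between 38.2 and 73.6 CPM with a median of 59.3 CPM in the jejunum (1.97 ± 0.14). Both genes had more than 3 times the mean level in the ileum and no overlap between sections. Farnesyl diphosphate synthase Fdps, lanosterol synthase Lss and mevalonate diphosphate decarboxylase Mvd rose by 1.89, 1.76 and 1.72 on the log2 scale. Msmo1, Mvk, Nsdhl, Tm7sf2, Pmvk and Hsd17b7, enzymes of mevalonate phosphorylation and of the trimming of lanosterol, rose by 1.04 to 1.48. The smallest rises were those of Acat2, the thiolase that opens the route (0.77 ± 0.11, adjusted p = 1.40e-05), and of Dhcr7, the reductase that closes it (0.44 ± 0.12, adjusted p = 0.00433). The libraries of the sections overlapped for Dhcr7.

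2 late enzymes stood apart from the rest. Ebp, a sterol isomerase, had between 64.3 and 116 CPM with a median of 66.7 CPM in the ileum, against between 61.2 and 73.4 CPM with a median of 65.1 CPM in the jejunum, and the difference was not called (0.19 ± 0.13, adjusted p = 0.252). Sc5d, the sterol desaturase that acts next (chr9:42251595-42264256), had between 90.3 and 133 CPM with a median of 112 CPM in the ileum, against between 148 and 196 CPM with a median of 168 CPM in the jejunum. Every ileal library of Sc5d was below every jejunal one, and it fell by 0.58 on the log2 scale (SE 0.12, adjusted p = 7.24e-04).

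**Figure D1:**
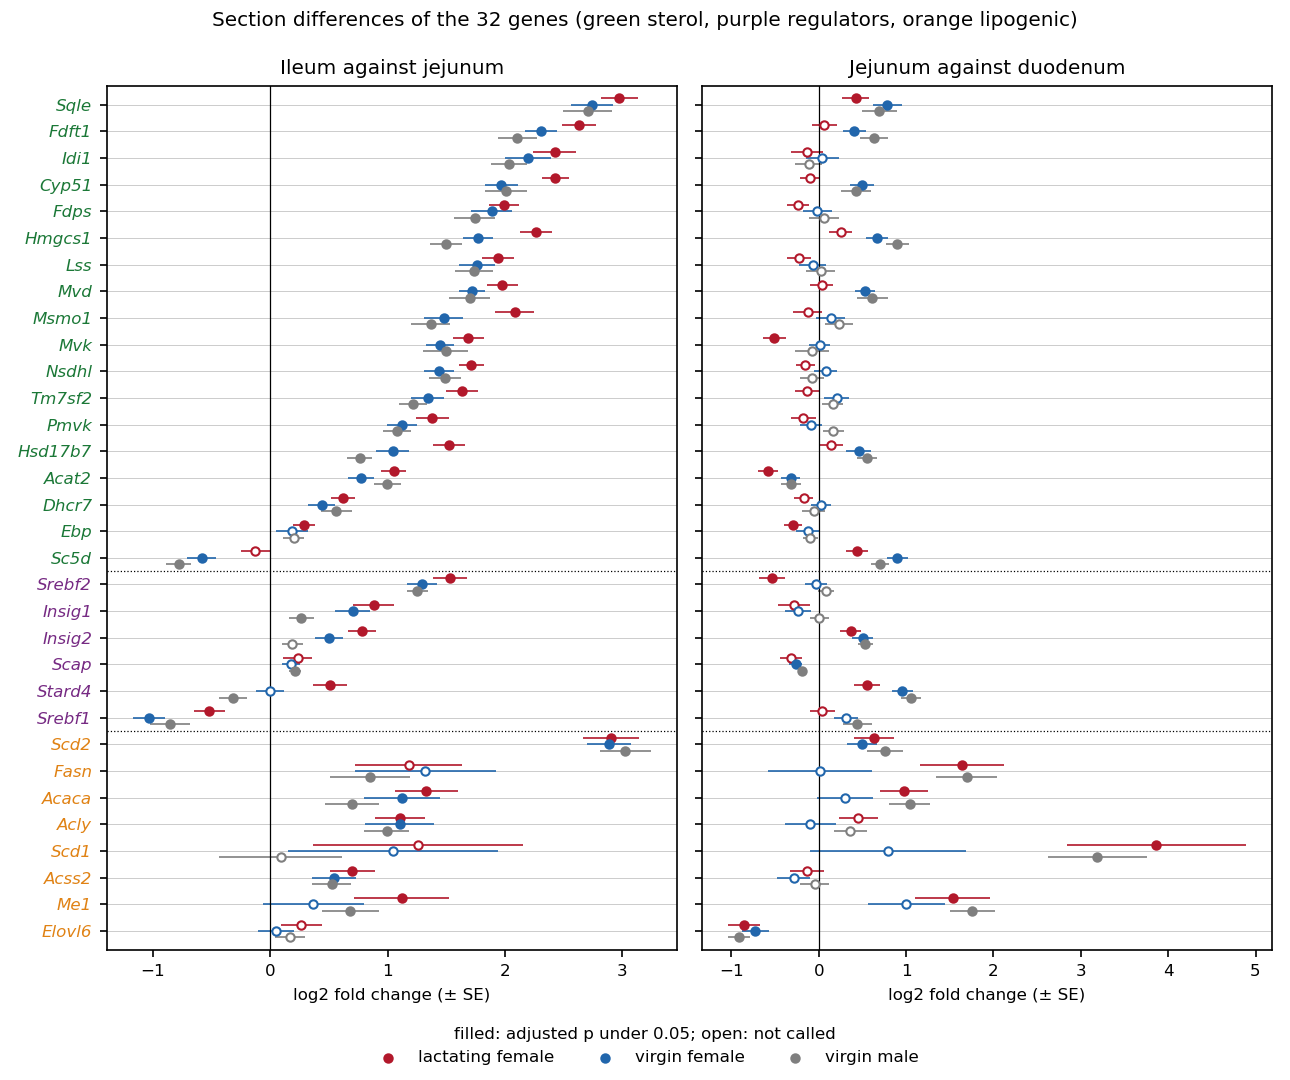
Log2 fold change (± SE, horizontal axes) of each of the 32 genes (rows, in order of role and of the virgin female value) for ileum against jejunum (left) and jejunum against duodenum (right), in lactating females, virgin females and virgin males; filled points were called at an adjusted p under 0.05. On the left, 16 of the 18 sterol enzymes were called higher in all 3 states, while on the right the sterol values lie between -0.58 and 0.90 and Scd1, Fasn and Me1 are high in lactating females and virgin males.

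The regulators did not move as one group. Srebf2 (chr15:82147181-82205379) had between 167 and 281 CPM with a median of 242 CPM in virgin female ileum, against between 81.2 and 115 CPM with a median of 99.2 CPM in the jejunum, with no overlap (1.29 ± 0.13, adjusted p = 1.05e-07). Srebf1 (chr11:60199089-60222581) went the other way, with between 52.01 and 72.6 CPM with a median of 66.3 CPM in the ileum, against between 94.7 and 166 CPM with a median of 129 CPM in the jejunum, again with no overlap (-1.03 ± 0.14, adjusted p = 5.17e-06). The counts do not separate the SREBP-1a and SREBP-1c transcripts of Srebf1. Insig1, itself a classical SREBP target, had between 47.96 and 90.3 CPM with a median of 66.8 CPM in the ileum, against between 30.8 and 46.1 CPM with a median of 44.3 CPM in the jejunum (0.70 ± 0.15, adjusted p = 7.65e-04). Insig2 rose less (0.50 ± 0.12, adjusted p = 0.00246) and its sections overlapped. Scap (0.18 ± 0.08, adjusted p = 0.063) and the cytosolic cholesterol carrier Stard4 (0.00 ± 0.12, adjusted p = 0.989) were not called.

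Among the 8 lipogenic genes 4 rose in virgin female ileum against jejunum and none fell. Scd2, a stearoyl-CoA desaturase (chr19:44293674-44306864), had between 198 and 428 CPM with a median of 374 CPM in the ileum, against between 39.9 and 54.3 CPM with a median of 45.3 CPM in the jejunum. Its log2 fold change of 2.89 ± 0.18 (adjusted p = 2.74e-10) was the largest of the 32 members in this comparison. Acly and Acss2, which make acetyl-CoA from citrate and from acetate, and Acaca, which turns it into malonyl-CoA, were called at 1.10 ± 0.29, 0.55 ± 0.19 and 1.12 ± 0.32 (adjusted p = 0.00473, 0.0233 and 0.00811), with overlapping libraries. Fasn, fatty acid synthase, had between 69.2 and 569 CPM with a median of 401 CPM in the ileum, against between 27.3 and 286 CPM with a median of 126 CPM in the jejunum, so that the libraries of each section spread over several-fold. Its log2 fold change of 1.32 ± 0.60 was not called (adjusted p = 0.075). Scd1, Me1 and Elovl6 were not called either, at 1.05 ± 0.89, 0.37 ± 0.43 and 0.05 ± 0.15. The sterol and lipogenic genes differed in spread as well as in calls: the median coefficient of variation over the virgin female ileal libraries was 34.3% for the lipogenic genes and 17.9% for the sterol enzymes.

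**Figure D2:**
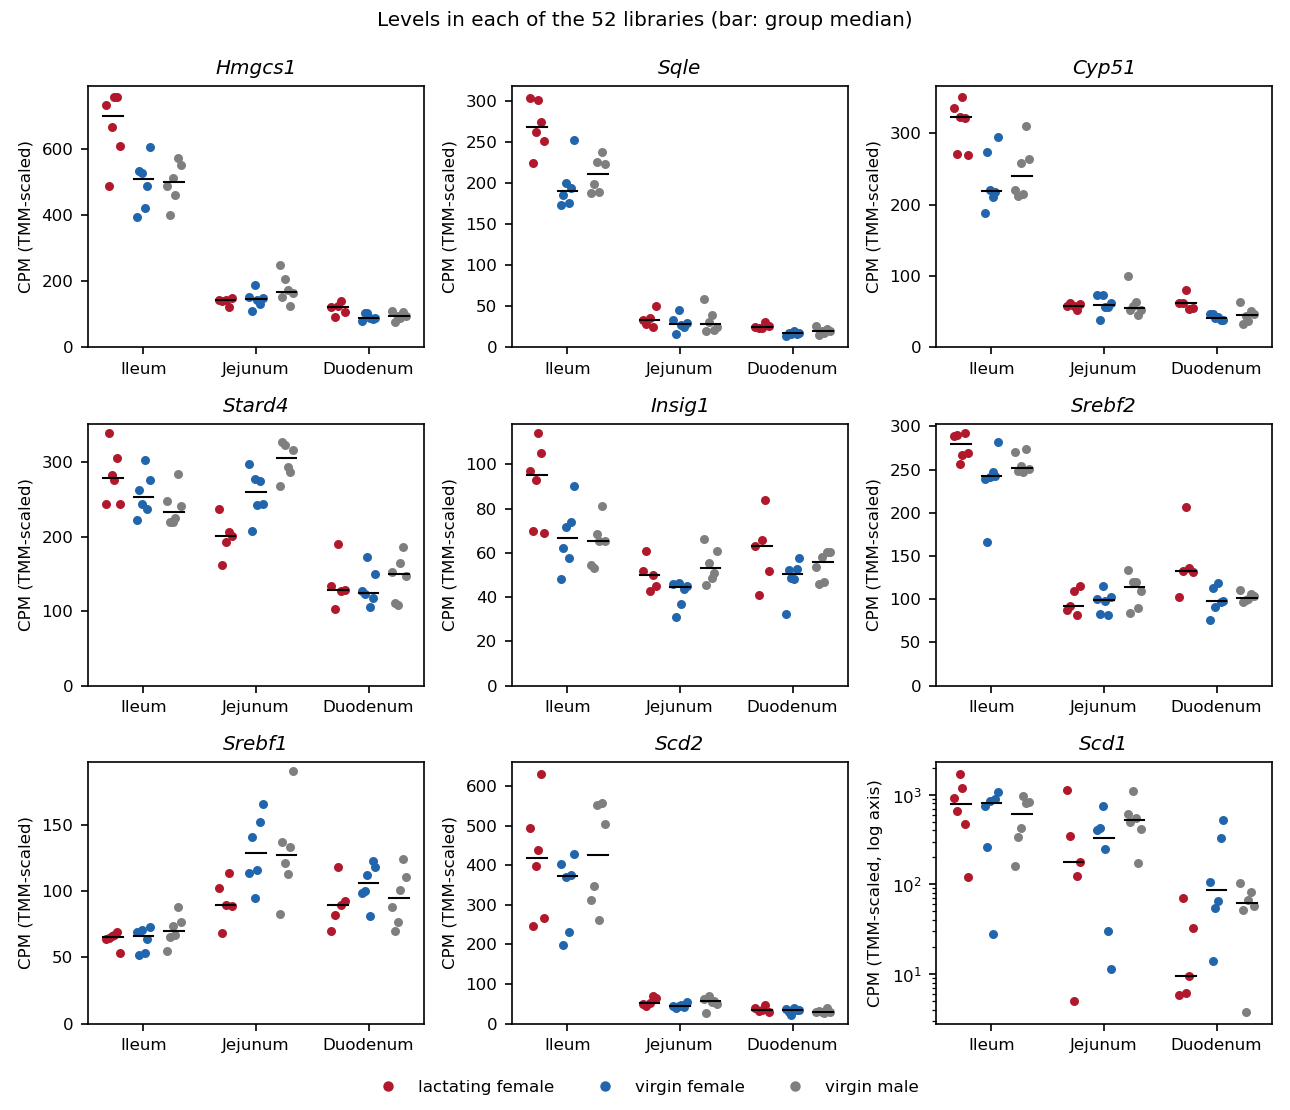
Level in CPM (vertical axes, logarithmic for Scd1) of 9 members in each of the 52 libraries, by section and by state (colour), with a bar at each group's median. Hmgcs1, Sqle, Cyp51, Srebf2 and Scd2 are high in every ileal group, Srebf1 is low there, Stard4 is low in the duodenum, and Scd1 spreads widely within every group.

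The same comparison in other libraries gave a similar picture. In lactating females 27 of the 32 members were called between ileum and jejunum, 26 higher and 1 lower, where 37.2% of all genes were called and 18.4% were higher. In virgin males 28 were called, 25 higher and 3 lower, where 64.2% of all genes were called and 34.0% were higher. The same 22 members were higher in the ileum in all 3 states: 16 sterol enzymes, Insig1, Srebf2, Acaca, Acly, Acss2 and Scd2. Srebf1 was lower in all 3, at -0.52 in lactating females, -1.03 in virgin females and -0.85 in virgin males. Sqle differed by 2.97 ± 0.16 in lactating females, 2.74 ± 0.18 in virgin females and 2.70 ± 0.21 in virgin males, and Scd2 by 2.90, 2.89 and 3.03 in the same order of states. Ebp was called only in lactating females (0.29 ± 0.10, adjusted p = 0.0254); whether lactating and virgin females differ in it is the test of the lactation effect between sections given below, which called no member.

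Stard4 was the only member called in opposite directions between ileum and jejunum. In lactating females it had between 243 and 339 CPM with a median of 279 CPM in the ileum, against 162, 192, 200.0, 206 and 237 CPM in the 5 jejunal libraries (0.51 ± 0.14, adjusted p = 0.00953). In virgin males it had between 219 and 284 CPM with a median of 233 CPM in the ileum, against between 267 and 327 CPM with a median of 305 CPM in the jejunum (-0.32 ± 0.12, adjusted p = 0.0234). The ileal levels of these states overlapped, and the lactating jejunal libraries were all below the virgin male jejunal ones. When libraries were scaled by their totals alone, the male value turned to 0.09.

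Scaling matters for how all genes split between ileum and jejunum. With TMM scaling 3619 genes were higher and 3652 lower in virgin female ileum, while with library totals alone 8101 were higher and 1731 lower and the median of all genes moved to 0.41. The sterol median was then 1.81, and 17 sterol enzymes were higher and 1 lower.

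Between jejunum and duodenum the pattern was smaller and mixed. In virgin females 13 of 32 members were called, 10 higher and 3 lower in the jejunum, where 37.2% of all genes were called. The members were thus called about as often there as genes in general. Of the sterol enzymes 7 rose, Acat2 fell and 10 were not called, and their median log2 fold change was 0.11, against -0.05 over all genes. With library totals alone that median was -0.11, against -0.27 over all genes, with 4 sterol enzymes higher and 3 lower and 46.5% of all genes called.

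Among the members called, Stard4 and Sc5d had the largest values. Sc5d had between 148 and 196 CPM with a median of 168 CPM in virgin female jejunum, against between 70.3 and 119.5 CPM with a median of 89.98 CPM in the duodenum (0.90 ± 0.12, adjusted p = 1.94e-05). Stard4 had between 208 and 298 CPM with a median of 259 CPM in the jejunum, against between 105 and 172 CPM with a median of 125 CPM in the duodenum (0.96 ± 0.12, adjusted p = 7.44e-06). Insig2 had between 55.3 and 72.98 CPM with a median of 59.8 CPM in the jejunum, against between 36.99 and 52.2 CPM with a median of 42.1 CPM in the duodenum (0.50 ± 0.12, adjusted p = 0.00366). None of these 3 overlapped between jejunum and duodenum, while 16.7% of all genes had no overlap.

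Sqle and Hmgcs1 were also higher in the jejunum. Sqle had between 16.2 and 45.7 CPM with a median of 28.9 CPM in the jejunum, against between 14.5 and 19.6 CPM with a median of 17.2 CPM in the duodenum (0.79 ± 0.17, adjusted p = 0.00141), with overlap. Hmgcs1 had between 109.6 and 189 CPM with a median of 147 CPM in the jejunum, against between 80.5 and 104 CPM with a median of 87.9 CPM in the duodenum (0.67 ± 0.12, adjusted p = 4.17e-04) without overlap. Elovl6, which lengthens palmitate, was the member highest in the duodenum relative to the jejunum, with between 76.9 and 108 CPM with a median of 94.2 CPM in the jejunum, against between 117 and 177 CPM with a median of 163 CPM in the duodenum (-0.73 ± 0.15, adjusted p = 0.00122). Me1, the malic enzyme that supplies NADPH, had between 19.1 and 71.3 CPM with a median of 36.5 CPM in the jejunum, against between 8.76 and 47.7 CPM with a median of 15.03 CPM in the duodenum (1.00 ± 0.44, adjusted p = 0.079). Scd1, the other stearoyl-CoA desaturase, had between 11.3 and 752 CPM with a median of 329 CPM in the jejunum, against between 13.98 and 523 CPM with a median of 85.9 CPM in the duodenum (0.79 ± 0.89, adjusted p = 0.519). Srebf1 had between 94.7 and 166 CPM with a median of 129 CPM in the jejunum, against between 81.01 and 123 CPM with a median of 106 CPM in the duodenum (0.31 ± 0.14, adjusted p = 0.08). Me1, Scd1 and Srebf1 were not called, and the libraries of jejunum and duodenum overlapped for each. In lactating females 14 members were called, 9 higher and 5 lower (27.4% of all genes called), and in virgin males 18 were called, 15 higher and 3 lower (50.1% of all genes called). Sqle, Sc5d, Stard4, Insig2 and Scd2 were higher and Acat2 and Elovl6 lower in the jejunum in all 3 states. The lactating count fell to 7 without replicate 1 of the lactating jejunum, the library with the highest Scd1 of its group, and in that state Scd2 lost its call in 8, Sqle in 7 and Insig2 in 6 of the 10 fits that left out 1 library. Without that library 21.8% of all genes were called. In virgin females Acat2 lost its call in 6 of 12 such fits, with an adjusted p of up to 0.0705, and Scd2 in 5 of 12, with one of up to 0.0718.

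Cell-type markers moved with this comparison as well. In virgin females both exocrine pancreas markers tested, all 4 liver markers, 3 of 4 macrophage markers, both B and plasma cell markers tested, 3 of 5 fibroblast markers and 3 of 6 crypt markers were lower in the jejunum. Higher there were 4 of 6 enterocyte markers, with 1 lower, 2 of 3 proximal enterocyte markers, 2 of 3 Paneth cell markers, both ileal enterocyte markers, 1 of 4 goblet cell markers and 1 of 7 adipocyte markers. In lactating females 6 of 7 adipocyte markers and all 5 smooth muscle markers were higher in the jejunum, and the summed smooth muscle list ranged over 2676 to 4303 CPM in jejunal and 1779 to 2979 CPM in duodenal libraries. In virgin males all 7 adipocyte and all 5 smooth muscle markers were higher and 5 of 6 crypt markers lower. The summed exocrine pancreas list ranged over 5.30 to 8.23 CPM in all jejunal and 6.96 to 11458 CPM in all duodenal libraries. Of the liver list, Cps1 had virgin female medians of 239 CPM in the jejunum and 705 CPM in the duodenum, against 0.145 and 1.06 CPM of Alb. Cps1 thus stood high where Alb was low, and this list cannot be read as liver cells alone. The part of these cell types in the differences between jejunum and duodenum was not tested.

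Across the whole length, 27 members were called between ileum and duodenum in virgin females, 25 higher and 2 lower (47.1% of all genes called), 30 in lactating females (53.3%) and 29 in virgin males (65.2%). The same 24 were higher in the ileum in all 3 states, and Srebf1 and Elovl6 were lower in all 3. Sqle had the largest log2 fold change in virgin females, 3.53 ± 0.18 (adjusted p = 7.84e-12), followed by Scd2 with 3.38 ± 0.19. These comparisons share the ileal and duodenal libraries with those above and are not independent of them.

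Read per length of transcript (RPKM, which is CPM divided by the kilobases of joined exons), the order of the members also changed along the gut. In virgin female ileum the highest were Scd1 with 132 ± 83.6, Hmgcs1 with 108 ± 16.9, Scd2 with 61.3 ± 17.5, Cyp51 with 53.05 ± 9.21 and Stard4 with 46.03 ± 5.22 RPKM (mean ± SD, n = 6). Scd1 and Hmgcs1 did not differ beyond their spread, nor did Scd2, Cyp51 and Stard4. In virgin female jejunum they were Scd1 with 64.00 ± 57.1, Stard4 with 46.1 ± 5.73, Sc5d with 34.8 ± 3.94 and Hmgcs1 with 31.7 ± 5.74 RPKM. In virgin female duodenum Scd1 had 37.1 ± 40.98, Ebp 31.02 ± 4.74, Elovl6 24.4 ± 3.70 and Stard4 23.7 ± 4.37 RPKM, and the spread of Scd1 covered those of the others. Sqle held rank 6 of the 32 in the ileum, with 35.5 ± 5.23 RPKM, rank 25 in the jejunum, with 5.34 ± 1.77 RPKM, and rank 28 in the duodenum, with 3.09 ± 0.316 RPKM. Lss and Acaca were at or near the bottom in every section, at 1.09 to 3.68 RPKM. Their joined exons, 10787 and 17074 bases, were among the longest of the members. Joined exons can be longer than any single transcript of a gene, which lowers its RPKM and its rank.

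Other genes of these pathways, listed by role, moved in both directions. Of 12 other sterol genes, 6 rose and 4 fell in virgin female ileum against jejunum, with a median of 0.26, and of the 16 tested of 17 other lipogenic genes 8 rose and 4 fell, with a median of 0.58. Soat2, the enterocyte enzyme that esterifies cholesterol, had 77.3 ± 12.1 CPM in the ileum, against 385 ± 34.3 CPM in the jejunum (-2.31 ± 0.15, adjusted p = 2.11e-10; mean ± SD, n = 6 each). Npc1l1, which takes cholesterol up from the lumen, fell by 1.56 on the log2 scale (SE 0.20). Aacs, which makes acetoacetyl-CoA from ketone bodies, rose by 1.78 ± 0.14, and Mlxipl, the carbohydrate-responsive activator ChREBP, fell by 1.66 (SE 0.13). Between jejunum and duodenum 8 of the 12 other sterol genes rose and none fell, led by Mylip, a ubiquitin ligase for lipoprotein receptors (1.503 ± 0.22), and Npc1l1 (1.24 ± 0.20). Of the other lipogenic genes 3 rose, led by Acsl3 (1.86 ± 0.25), and 5 fell, led by Aldoc (-1.48 ± 0.16).

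The cell types in these pieces of gut also differed between sections. In virgin females the 5 enterocyte markers called between ileum and jejunum were all lower in the ileum, as were all 3 proximal enterocyte markers, while all 5 fibroblast markers, all 4 macrophage markers, 3 of 5 smooth muscle markers, 3 of 6 markers of crypt stem and dividing cells 2 of 4 goblet cell markers, 2 of 5 markers of neurons and glia, 1 of 4 liver markers and both ileal enterocyte markers were higher. Of the adipocyte markers 1 of 7 was lower. The summed crypt list ranged over 470.4 to 785 CPM in ileal and 376 to 897 CPM in jejunal libraries, and the fibroblast list over 454 to 661 CPM in ileal and 135 to 441 CPM in jejunal libraries. The part of these cell types in the section differences of the sterol enzymes was not tested.

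Several of the lipogenic genes moved with fat cell transcripts from library to library. Adipoq, a secreted product of adipocytes, ranged from 0.124 to 60.7 CPM over the 6 virgin female ileal libraries and from 0 to 27.8 CPM over the 6 virgin female jejunal libraries. Across the 18 ileal libraries log2 Scd1 followed log2 Adipoq with a Pearson r of 0.95 (Spearman rho 0.88; r = 0.83 without the 2 libraries farthest from the median). Across the 17 jejunal libraries r was 0.98 (rho 0.97, 0.97 without 2), and across the 17 duodenal ones 0.90 (rho 0.90, 0.82 without 2). Fasn gave r of 0.86, 0.90 and 0.94, and rho of 0.83, 0.90 and 0.94, in ileum, jejunum and duodenum. Among 96 such correlations (permutation tests, 2-sided, 100000 permutations, Benjamini-Hochberg adjusted over the 96), r and rho both had an adjusted p under 0.05 for 5 of 8 lipogenic genes in the ileum, 5 of 8 in the jejunum and 3 of 8 in the duodenum. The larger of the 2 adjusted p-values was 3.20e-04 for Scd1 in the ileum. Scd1, Fasn and Acaca met that rule in every section, Acss2 in ileum and jejunum, Me1 only in the ileum and Acly only in the jejunum. Elovl6 and Scd2 met it in none. In ileum, jejunum and duodenum r was 0.50, 0.02 and -0.28 for Elovl6, and 0.34, -0.14 and 0.01 for Scd2. No sterol enzyme and no regulator met that rule in any section. Libraries of the 3 states were pooled within a section and permuted across states, so differences between states enter these correlations too.

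**Figure D3:**
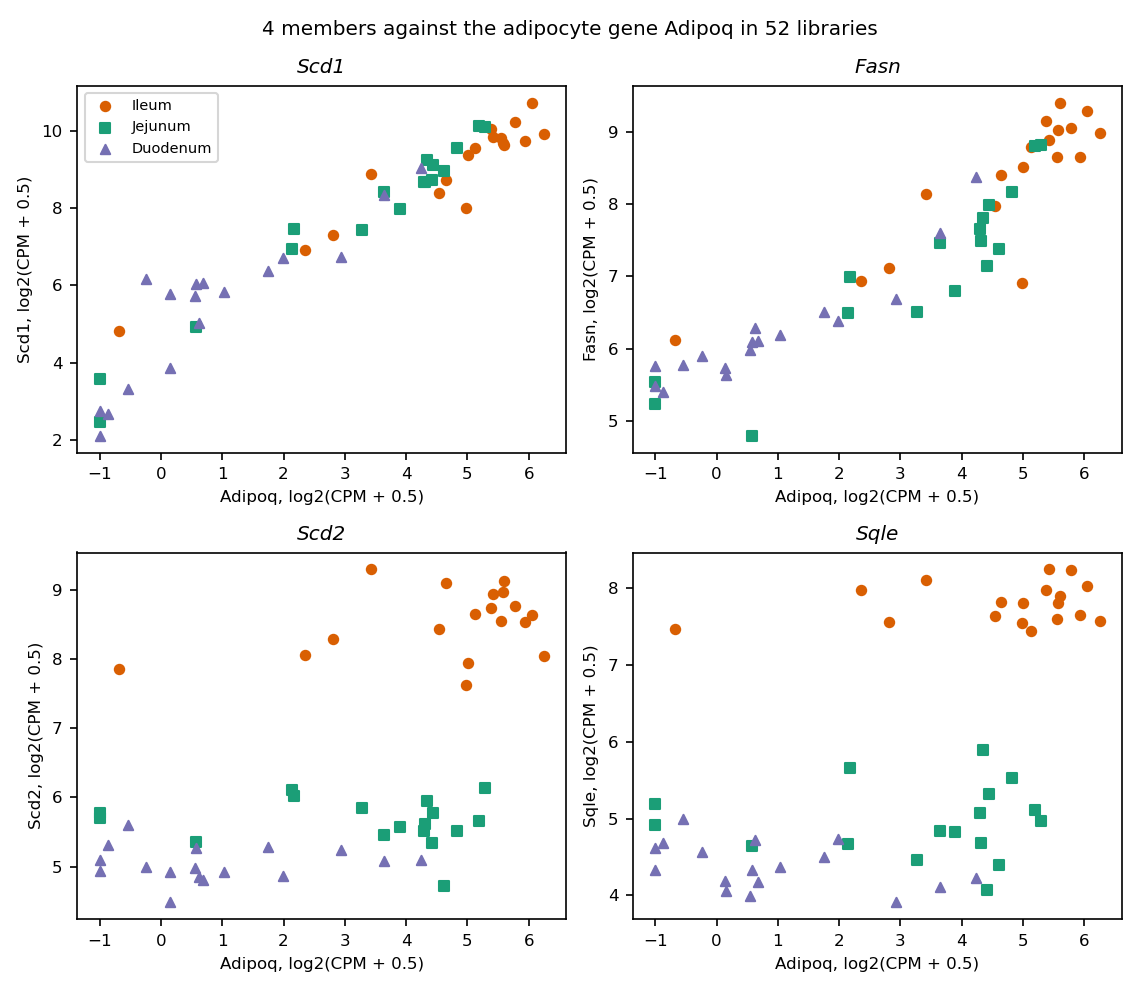
Log2(CPM + 0.5) of Scd1, Fasn, Scd2 and Sqle (vertical axes) against that of Adipoq (horizontal axes) in each of the 52 libraries, by section. Scd1 and Fasn rise with Adipoq within each section, while Scd2 and Sqle sit high in every ileal library, including the ileal library with the least Adipoq.

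Single libraries show the contrast. Replicate 4 of the virgin female ileum had 0.124 CPM of Adipoq, with 27.5 CPM of Scd1 and 69.2 CPM of Fasn, both the lowest of their group. The same library had 233 CPM of Scd2 and 176 CPM of Sqle, above every jejunal library of virgin females. Replicate 6 of the virgin female jejunum and replicate 4 of the lactating jejunum had no Adipoq reads, and their Scd1 was 11.3 and 4.99 CPM. Scd2 was 54.3 CPM in the first, the highest of the virgin female jejunal libraries. It was 51.7 CPM in the second, inside the range of the other lactating jejunal libraries. Other libraries went against a link with Adipoq. Replicate 5 of the virgin female jejunum had 0.988 CPM of Adipoq and 71.3 CPM of Me1, the highest of its group. Replicate 2 of the virgin female ileum had 31.0 CPM of Adipoq and only 119 CPM of Fasn.

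Of the 7 listed adipocyte markers, Adipoq, Lep, Plin1, Retn and Cfd were at 0 in at least 1 library of the lactating jejunum, while Cidec and Fabp4 had reads in every library. The summed list ranged over 26.9 to 838 CPM in ileal, 168 to 481 CPM in jejunal and 97.4 to 289.5 CPM in duodenal libraries. In the lactating duodenum the sum was 97.4 to 132 CPM, of which Cidec had 76.1 to 112 CPM, while Lep was at 0 in all 5 libraries. The virgin female medians of Cidec were 56.7, 149.9 and 99.5 CPM in ileum, jejunum and duodenum, and those of Adipoq 37.8, 16.7 and 4.06 CPM. Cidec thus did not follow Adipoq across sections, and the sum cannot be read as fat cells alone. When the level of Adipoq was entered as a covariate, a fit added after seeing the data, the virgin female comparison of ileum with jejunum still called 16 sterol enzymes higher and 1 lower, with a median of 1.43, and 25 of 32 members in all (41.8% of all genes called). The lipogenic median was 0.53, against 1.08 without the covariate, and Acss2 lost its call. Scd2 stayed at 2.79 ± 0.19 (adjusted p = 1.68e-09). Between lactating jejunum and duodenum the covariate took the count of called members to 3, where 13.7% of all genes were called. There Scd1, called at 3.87 ± 1.03, had 0.07 ± 0.72, and 2 of 8 lipogenic genes were called, both lower. In virgin males it took the count to 4 between jejunum and duodenum (14.8% of all genes called) and to 18 between ileum and duodenum (30.8%). Duodenal libraries had at most 18.3 CPM of Adipoq, so the part of fat in the section differences of Scd1, Fasn, Me1 and Acaca cannot be told apart from that of the section itself.

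Few of these genes were called between lactating and virgin females, and a gene that was not called is not shown to be unchanged. In the ileum 2 of 32 members were called, both higher in lactating females, where 2.16% of all 15106 genes were called and 1.25% were higher. Sqle had between 224 and 304 CPM with a median of 268 CPM in lactating females, against between 173 and 252 CPM with a median of 190.1 CPM in virgin females. All 6 lactating libraries lay above 5 of the 6 virgin ones, and the groups overlapped through virgin replicate 6 (0.43 ± 0.10, adjusted p = 0.028). Hsd17b7, an enzyme of the removal of methyl groups from lanosterol (chr1:169949535-169969241), had between 48.6 and 73.1 CPM with a median of 63.1 CPM in lactating females, against between 31.8 and 57.7 CPM with a median of 43.2 CPM in virgin females, also with overlap (0.52 ± 0.13, adjusted p = 0.0445).

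Each of these calls was lost in 8 of the 12 fits that left out 1 library. Without any 1 of lactating replicates 1, 3, 4 or 5 or virgin replicates 1, 3, 4 or 5, Sqle had an adjusted p of 0.0517 to 0.0805. Without lactating replicate 1, 3, 4, 5 or 6 or virgin replicate 1, 3 or 5, Hsd17b7 had one of 0.0627 to 0.114. The count of called members ran from 0 to 9 when 1 library was left out: it was 0 without lactating replicate 1, 3, 4 or 5 or virgin replicate 1, 3 or 5, 1 without lactating replicate 6 or virgin replicate 4, 3 without lactating replicate 2, 4 without virgin replicate 6 and 9 without virgin replicate 2. The share of all genes called was 3.03% without virgin replicate 6 and 7.80% without virgin replicate 2, and 0.739% to 2.15% in the other 10 fits. DESeq2 called 4 members, where it called 5.90% of all genes.

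All 18 sterol enzymes had a positive log2 fold change in lactating ileum, from 0.06 to 0.52 with a median of 0.27, against -0.02 over all genes, and 17 of 18 were positive with library totals alone, under which the median of all genes was -0.10. The 16 not called included Hmgcs1, with 667 ± 105 CPM in lactating and 495 ± 77.7 CPM in virgin females (mean ± SD, n = 6 each; 0.41 ± 0.12, adjusted p = 0.0803), and Cyp51 (0.39 ± 0.12, adjusted p = 0.0774). These genes share libraries and are not independent of one another. The 8 lipogenic genes were also positive with a median of 0.29 and none called, and Scd1 had between 120.2 and 1706 CPM with a median of 791 CPM in lactating females, against between 27.5 and 1071 CPM with a median of 805 CPM in virgin females. Of the other pathway genes, 2 of 12 sterol genes and 1 of 16 lipogenic genes were called, all higher. Npc1l1 had 1080.2 ± 81.98 CPM in lactating females, against 728 ± 182 CPM in virgin females (0.54 ± 0.13, adjusted p = 0.0396). The fatty acid elongase Elovl1 had 202 ± 35.5 CPM in lactating females, against 145 ± 7.45 CPM in virgin females, without overlap (0.45 ± 0.10, adjusted p = 0.0246). In lactating ileum 3 of 5 markers of neurons and glia and 1 of 4 macrophage markers were lower. Of the enterocyte markers 1 of 6 was higher, and none of the 3 proximal enterocyte markers was called. The summed enterocyte list ranged over 25144.5 to 29732 CPM in lactating and 12912 to 25786 CPM in virgin female ileum. In the same order, the proximal enterocyte list ranged over 1005 to 1490 CPM and 433 to 1169.8 CPM. The list of neurons and glia ranged over 22.8 to 34.3 CPM and 36.8 to 49.98 CPM. The part of these cell types in the lactation values was not tested.

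**Figure D4:**
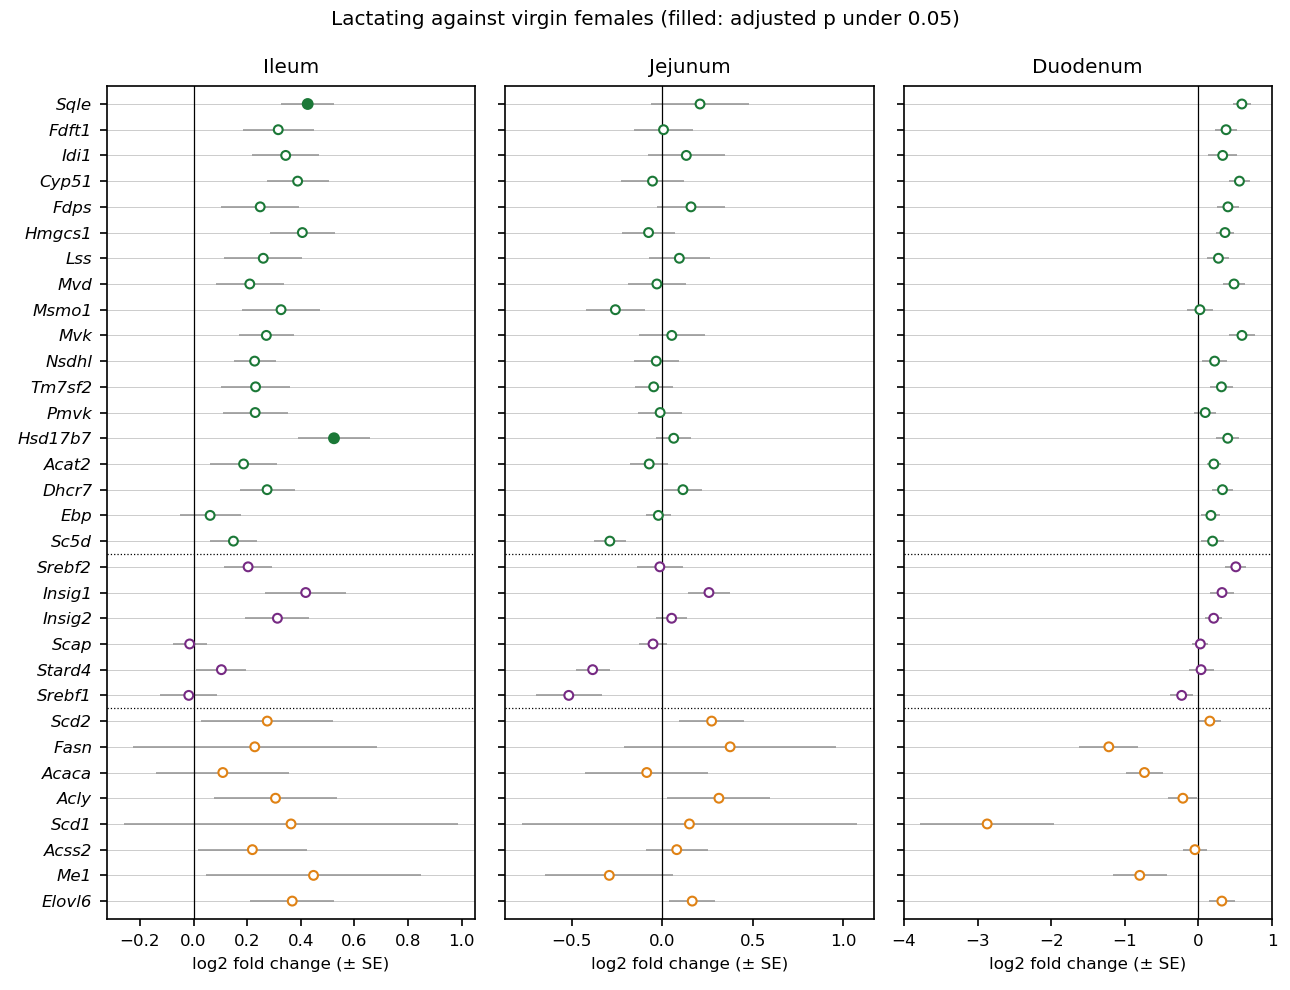
Log2 fold change (± SE, horizontal axes, which differ in range between panels) of lactating against virgin females for each of the 32 genes in ileum, jejunum and duodenum; green marks sterol enzymes, purple regulators and orange lipogenic genes, and filled points were called. Only Sqle and Hsd17b7 in the ileum are filled, the green points lie right of 0 in ileum and duodenum and around 0 in the jejunum, and the lipogenic values have the widest error bars.

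In the lactating jejunum no member was called by edgeR, where 1.31% of all 14783 genes were. DESeq2 called 1 member, where it called 3.69% of all genes. The sterol enzymes had a median of -0.02, with 8 of 18 positive. Stard4 came closest, with 162, 192, 200.0, 206 and 237 CPM in the 5 lactating libraries, against between 208 and 298 CPM with a median of 259 CPM in virgin females (-0.38 ± 0.09, adjusted p = 0.0541). Srebf1 had 68.2, 88.7, 89.6, 103 and 114 CPM in lactating females, against between 94.7 and 166 CPM with a median of 129 CPM in virgin females (-0.52 ± 0.18, adjusted p = 0.175). Mylip was the 1 gene called among the other pathway genes, with 13.3 ± 3.38 CPM in lactating females (n = 5), against 23.1 ± 4.59 CPM in virgin females (n = 6), and it fell by 0.81 on the log2 scale (SE 0.17, adjusted p = 0.0345).

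In the lactating duodenum no member was called by edgeR, in a comparison that called only 1 of 15116 genes (0.00662%). DESeq2 called 1 member, where it called 0.668% of all genes. The sterol enzymes had positive values in 18 of 18, from 0.02 to 0.59 with a median of 0.33, against 0.01 over all genes, and in 17 of 18 with library totals alone. Sqle had 23.2, 24.2, 25.2, 25.9 and 31.3 CPM in the 5 lactating libraries, against between 14.5 and 19.6 CPM with a median of 17.2 CPM in virgin females. Every lactating library lay above every virgin one, and the log2 fold change was 0.59 ± 0.12 (adjusted p = 0.105). Mvk, mevalonate kinase, had 14.6, 14.8, 15.3, 15.8 and 20.2 CPM in lactating females, against between 9.18 and 11.7 CPM with a median of 10.9 CPM in virgin females (0.59 ± 0.18, adjusted p = 0.287). Sqle, Mvk, Cyp51 and Mvd were the 4 members without overlap, while 0.721% of all genes had none. The summed exocrine pancreas list ranged over 6.96 to 10422 CPM in lactating duodenum, with a median of 8.54 CPM, against 7.04 to 6497 CPM in virgin female duodenum, with a median of 2367 CPM. None of the 5 pancreas markers tested was called between these groups, and the part of pancreatic RNA in the values of the sterol enzymes was not tested.

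The lipogenic genes lay on the other side of 0 in the duodenum, with a median of -0.47 and 2 of 8 positive. Scd1 had 5.82, 6.17, 9.44, 32.2 and 71.3 CPM in lactating females, against between 13.98 and 523 CPM with a median of 85.9 CPM in virgin females, and the log2 fold change of -2.87 ± 0.91 was not called (adjusted p = 0.315). Fasn (-1.22 ± 0.40, adjusted p = 0.347) and Acaca (-0.73 ± 0.26, adjusted p = 0.385) were not called either. Adipoq was 0 to 1.04 CPM in these lactating libraries, against 0.605 to 18.3 CPM in the virgin ones. Alb was at most 11.2 CPM (median 0.781) in the lactating and at most 192 CPM (median 1.06) in the virgin libraries. The part of liver RNA in these values was not tested. With Adipoq as a covariate the lipogenic median was 0.23 with 7 of 8 positive, the sterol median was 0.41 with 16 of 18 positive, and no member was called.

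Whether lactation acted differently in the sections was tested as a difference of the lactation effects. No member was called by edgeR or DESeq2 for ileum against jejunum (0.0256% of 15637 genes called by edgeR), jejunum against duodenum (0.0%) or ileum against duodenum (0.0703%). DESeq2 called 0.313%, 0.0448% and 0.313% of all genes in the same order. For ileum against jejunum the difference was positive for 18 of 18 sterol enzymes, with a median of 0.24 and a lowest adjusted p of 0.4998 for Hmgcs1 (0.47 ± 0.18). For jejunum against duodenum it was negative for 18 of 18, with a median of -0.30. With library totals alone these counts were 16 of 18 positive and 17 of 18 negative, and the contrasts share the jejunal libraries.

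No member was called by edgeR or DESeq2 between virgin females and virgin males, in ileum (0.0993% of all genes called by edgeR), jejunum (0.0676%) or duodenum (0.0331%). DESeq2 called 0.417%, 0.480% and 0.0595% of all genes there, in the same order. The sterol medians were -0.02, -0.14 and -0.09 in ileum, jejunum and duodenum, and the widest value was that of Scd1 in the duodenum, 1.58 ± 0.80.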

How the data were processed

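Polyadenylated RNA was sequenced with a strand-specific kit (NEBNext Ultra II Directional), per the labels' protocols. FastQC 0.11.5, STAR 2.7.7a, DESeq2 1.34.0 and the build GRCm38 are named in the submitters' processing notes; the gene annotation is not given in the sources used here. The deposited files hold raw read counts per gene symbol as the authors made them, in 3 columns for different strand settings. The column used held 97.9 to 98.6% of the stranded reads of each library. The 4 entries that name no gene held 20.0 to 31.7% of reads and were left out of library sizes.

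From these counts, edgeR 4.0.16 in R 4.3.3 fitted quasi-likelihood models (TMM scaling, filterByExpr with a minimum count of 10) on whole tables, in 7 fits: each section over the 3 states, each state over the 3 sections, and lactating and virgin females over all sections for the difference between lactation effects. P-values were Benjamini-Hochberg adjusted over all genes of a fit and called under 0.05. CPM were scaled by TMM over 52 libraries, and by library totals alone where the libraries left out are described. RPKM used the joined exons of GENCODE M21. DESeq2 1.42.0, other scalings and filters, a replicate block, leaving out single libraries and, chosen after seeing the data, an Adipoq covariate (log2 of CPM plus a pseudocount of 1) were alternatives. Correlations used log2 of CPM plus 0.5. The code was tested on simulated data.

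The members and lists were chosen with earlier results of these data known. Genes given in full were the 3 of each role with the largest absolute change between virgin female sections, and 2 of each list of other genes; further genes were named for their role. Values of some other pathway genes are not reported here. Depth limits only genes with few reads; all members were tested.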

Additional observations from a re-analysis of the deposited data

Results flagged for a closer look

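A library far from the others of its group was sought for each of the 32 members in each of the 9 groups with Dixon's test. Of the 288 sets of values, 22 (7.64%) had such a library, 17 high and 5 low, where chance gives about 1 in 20.

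Virgin male jejunum replicate 1 stood above the rest of its group in 4 sterol enzymes. Its Mvk was 17.9 CPM, with the others at 8.73 to 10.2 CPM, its Cyp51 100.02 CPM (others 45.7 to 64.2), its Nsdhl 23.0 CPM (13.3 to 17.0) and its Dhcr7 50.6 CPM (33.3 to 38.5). Virgin male duodenum replicate 1 was high in Mvd, with 15.4 CPM (8.67 to 9.64), and in Fdft1, with 28.7 CPM (at least 15.8 in the others). Virgin female ileum replicate 2, without which 9 members were called in the lactation comparison, was high in Pmvk with 58.0 CPM (33.1 to 40.9) and in Ebp with 116 CPM (64.3 to 70.0), and low in Srebf2 with 167 CPM (240 to 281). Lactating jejunum replicate 1 was high in 3 lipogenic genes, with 49.3 CPM of Acaca (16.4 to 23.6), 163 CPM of Acly (66.7 to 92.1) and 47.8 CPM of Acss2 (24.6 to 28.1); its Adipoq of 35.9 CPM was the highest of its group. Lactating duodenum replicate 4 was high in Mvk with 20.2 CPM (14.6 to 15.8) and in Ebp with 105 CPM (69.7 to 79.1).

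The others were single genes. Sqle was 252 CPM in virgin female ileum replicate 6 (173 to 200), Insig2 73.0 CPM in virgin female jejunum replicate 5 (55.3 to 61.3), Scap 61.9 CPM in virgin female duodenum replicate 2 (45.3 to 49.9) and Scd2 38.6 CPM in virgin male duodenum replicate 5 (27.5 to 31.2). On the low side, Hsd17b7 was 34.2 CPM in virgin male ileum replicate 2 (41.2 to 44.4), Insig1 32.5 CPM in virgin female duodenum replicate 1 (48.3 to 57.8), Srebf1 53.6 CPM in lactating ileum replicate 6 (64.2 to 69.1) and Acly 59.5 CPM in virgin male duodenum replicate 3 (72.2 to 77.6).

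The libraries that were left out differed in many members. In replicate 3 of the lactating duodenum, which carried the liver transcripts, 29 of the 32 members were above every virgin female duodenal library and 1 was below. In replicate 3 of the lactating jejunum 16 were above every virgin female jejunal library and 6 below.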

How the results depend on the processing

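Of 213 calls of single members, the filter of CPM above 1 kept 213, DESeq2 212, median-of-ratios scaling 211, the replicate block 207, no filter 206, one fit of 52 libraries 205, library totals alone 197 and the Adipoq covariate 154, with 49 lost and 10 turned in sign. The labels do not tie replicate numbers to animals, and in no fit was every same-number correlation over 0.1, so the numbers were not used as pairs. These correlations ran from -0.42 to 0.61 in the duodenum (10 of 16 over 0.1; the own number was best in 5), -0.56 to 0.42 in the jejunum (6 of 16; 4) and -0.28 to 0.23 in the ileum (3 of 18; 2). They ran from -0.21 to 0.20 in lactating females (3 of 15; 2), -0.18 to 0.19 in virgin females (8 of 18; 2) and -0.22 to 0.18 in virgin males (8 of 18; 6). With the block the lactation comparison in the ileum called 2 members (1.54% of all genes).

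Members called for lactation in the ileum were 0 with library totals (3.81% of all genes called), 4 with DESeq2 (5.90%) and 1 in one fit (0.961%). They were 1 with library totals (1.30%) and 1 with DESeq2 (3.69%) in the jejunum, and 1 with DESeq2 (0.668%) and 1 in one fit (0.803%) in the duodenum. Leaving out each library gave 0 to 9 in the ileum, 0 to 1 in the jejunum, 0 to 0 in the duodenum and 0 to 0 for each difference of lactation effects. It gave 24 to 27 for ileum against jejunum in virgin and 25 to 28 in lactating females, 11 to 14 and 7 to 14 for jejunum against duodenum, and 25 to 29 and 28 to 30 for ileum against duodenum.

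With Adipoq as covariate, 3 members were called for jejunum against duodenum in lactating females, 4 in virgin males, and 18 for ileum against duodenum in virgin males. Signs turned for Fasn (-0.16) in lactating jejunum against duodenum, Acss2 (-0.33) and Scd1 (-0.10) in lactating ileum against duodenum, Fasn (-0.63), Acaca (-0.25) and Scd1 (-0.088) in male jejunum against duodenum, and Insig1 (-0.023), Fasn (-0.17), Acss2 (-0.45) and Scd1 (-0.59) in male ileum against duodenum. With library totals alone Stard4 turned to 0.085 in male ileum against jejunum. The cause of these turned signs was not tested.

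With all labelled libraries, 20 of the 71 calls of lactating section comparisons were kept, 29 lost and 22 turned in sign. 11 members were called for ileum against jejunum (16.7% of all genes) and 7 for ileum against duodenum (38.3%) in lactating females. For jejunum against duodenum Sqle was then -1.65, Sc5d -1.77, Insig2 -0.65, Fasn -3.82, Acaca -2.81, Me1 -3.11 and Scd1 -5.16. For ileum against duodenum Acat2 was -1.19, Pmvk -0.69, Fdps -1.03, Lss -0.86, Tm7sf2 -0.34, Nsdhl -0.060, Sc5d -1.81, Dhcr7 -0.74, Insig1 -1.75, Fasn -2.46, Acaca -1.42, Acly -2.52, Acss2 -3.65, Me1 -1.81 and Scd1 -3.67.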
